A study of Mus musculus with 6 samples.

Results

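The genes described here are 48 genes of the lysosome: 22 hydrolases, 4 activator and lipid-binding proteins, 10 membrane proteins, 11 subunits or accessory proteins of the proton pump, and the transcription factor Tfeb. They were found by gene symbol among the features of 2 types of liver array, from a list written with earlier results of these data known. On the oligonucleotide array 47 of the 48 had a feature, and all 47 had a value on all 3 arrays, out of 16871 genes with such values. On the cDNA array 31 had a feature and 26 had a value on all 3 arrays, out of 5011 genes. Atp6v0c, which encodes the proteolipid of the pump's membrane ring, had no feature that named it alone on either array and is not analysed here.

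Lysosomes are acidic organelles in which hydrolases take apart glycoproteins, glycosaminoglycans, sphingolipids, glycogen and proteins. The vacuolar H+-ATPase (V-ATPase) pumps protons inward, with a V1 sector that splits ATP and a membrane-embedded V0 sector that carries the protons, while glycosylated membrane proteins line the limiting membrane and export the products. In liver the hepatocytes hold lysosomes that clear lipoprotein remnants and autophagic cargo, and the resident macrophages (Kupffer cells) hold many more for the material they engulf. TFEB, the product of Tfeb, is known to bind a short DNA motif in the promoters of many of these genes.

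The livers came from female mice of the C57BL/6 strain, 7 weeks old when injections began and fed a chow of 4.4% fat. Treated mice received 0.5 g/kg of poloxamer P-407, a block copolymer used to raise blood lipids, by intraperitoneal injection every 3 days up to day 96, and control mice received saline on the same schedule. RNA of 12 treated mice made 3 pools, and RNA of 4 control mice made 1 pool that served as the control on every array. Each treated pool was read on 1 oligonucleotide array, after amplification of 0.5 ug of RNA, and on 1 cDNA array, with 10 ug labelled directly, so that 6 arrays in all carry 3 biological pools.

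A value is the deposited log ratio of a treated pool over the control pool, read as log2 and centred on each array's median. A positive value therefore means more RNA in the treated pool relative to the other genes. The log base, the centring and the direction are not stated in the sources used here; the direction is likely and rests on the titles and dyes. On a natural log scale every fold given would be larger. A gene is called higher or lower where the limma test of its 3 pools against 0 gave a Benjamini-Hochberg adjusted p under 0.05 over all genes of that array type. The 1 control pool leaves the spread between control animals out of that test, and without a dye swap a dye effect cannot be told apart from treatment. Depth has no counterpart here: no intensities were used, and precision is limited by the number of arrays. In whole liver RNA, fewer cells of a type and less RNA per cell cannot be told apart, and more cells and more RNA per cell equally so.

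On the oligonucleotide array 21 of 47 members were called higher (44.7%, against 22.0% of all genes) and 6 lower (12.8%, against 21.4%), which makes 27 called of 47 (57.4%, against 43.4%), and 20 were not called. At 1.5-fold or more, 7 members were higher (14.9%, against 2.12% of all genes) and 0 lower (against 1.23%), beside 3.35% of all genes in either direction. The 7 came from every class apart from the transcription factor: the hydrolases Hexa, Glb1 and Gusb, the activator protein Psap, the membrane proteins Gpr137b and Laptm5, and the V-ATPase subunit Atp6v0d2. The other 14 members called higher lay between 0.13 (Idua) and 0.54 (Tpp1), and the 20 members not called had means from -0.12 (Npc1) to 0.16 (Galns). The median of the 47 means was 0.09, beside 0.00 over all genes tested. In sign, 23 members were positive in all 3 pools (48.9%, against 35.1% of all genes), 11 were negative in all 3 (23.4%, against 34.1%) and 13 were mixed.

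**Figure D1:**
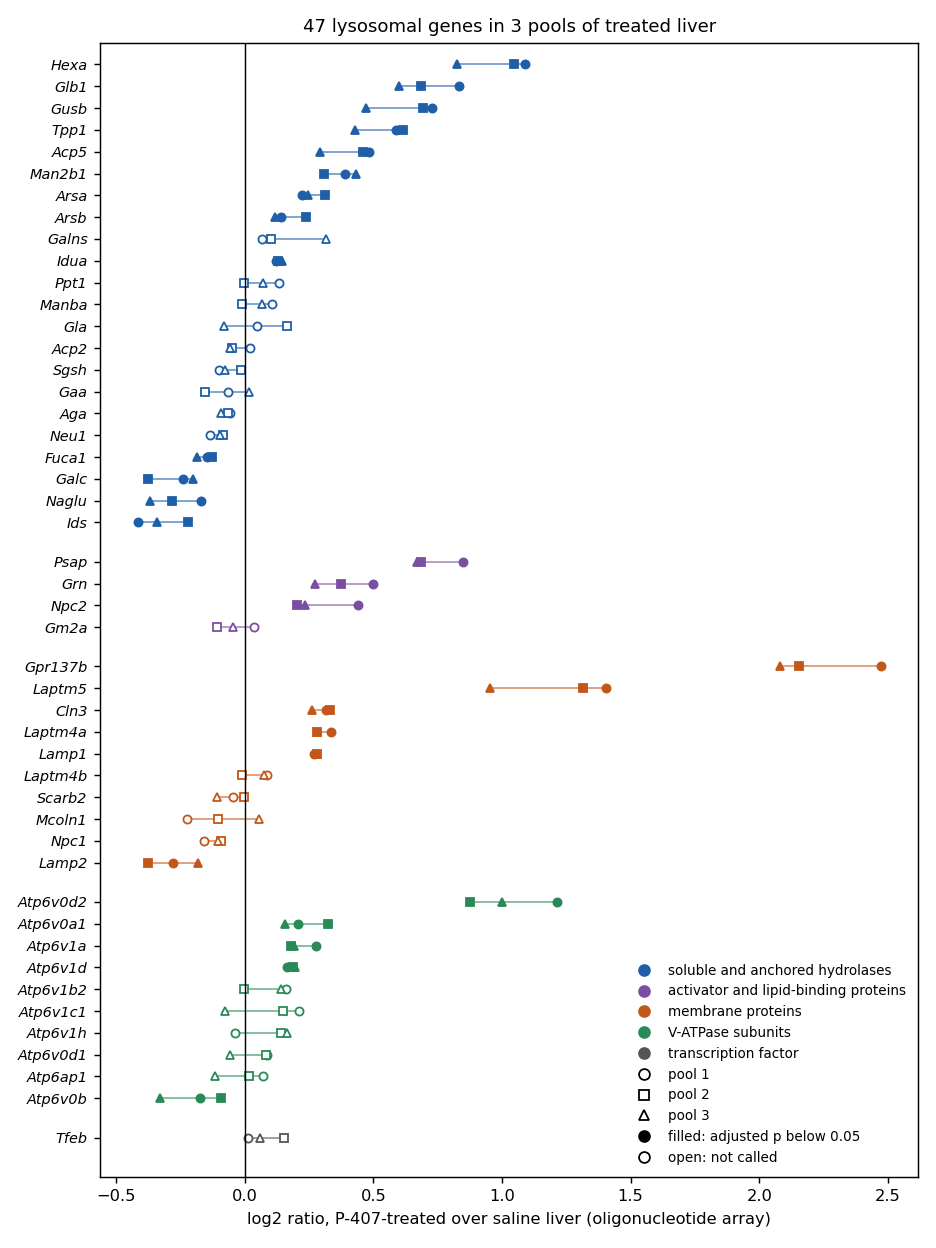
Log2 ratio of treated over saline liver (x axis, log2 units) for each of the 47 measured lysosomal genes (y axis, grouped by class) on the oligonucleotide array, with 1 marker per pool of treated mice and filled markers for genes with an adjusted p under 0.05. The 3 pools of Gpr137b lie at 2.08 or above, and the genes called lower stay at -0.42 or above.

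The promoters of the members were searched for the letters that TFEB is known to bind. RefSeq windows of GRCm38.p6, from 250 bases before to 50 bases after each start, were given for 39 of the 48 members. The motif TCACGTG, searched on both strands, stood in a window of 12 of these 39 (30.8%), against 4.29% of all 27025 genes with a window and 5.73% of the 13414 that were also tested on the oligonucleotide array. It contains the shorter E-box CACGTG, which the same 12 members held (30.8%, against 8.09% of all genes). The 6 stretches printed here are those of 4 genes called higher and both genes called lower among the 12. Each is read 5′ to 3′ on the gene's own strand and lies before the start. The stretch of Arsa, also called higher, is not printed. Capitals mark every CACGTG together with a T directly before it or an A directly after it.
Glb1 (chr9:114400994-114401070, plus strand): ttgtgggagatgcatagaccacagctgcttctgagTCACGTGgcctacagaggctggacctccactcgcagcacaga
Lamp1 (chr8:13159064-13159140, plus strand): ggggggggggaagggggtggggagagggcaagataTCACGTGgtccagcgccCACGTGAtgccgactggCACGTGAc
Cln3 (chr7:126583344-126583420, minus strand): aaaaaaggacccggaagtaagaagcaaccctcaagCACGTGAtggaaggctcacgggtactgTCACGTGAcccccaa
Atp6v1a (chr16:44139350-44139426, minus strand): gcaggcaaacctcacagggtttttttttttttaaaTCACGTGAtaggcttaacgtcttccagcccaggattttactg
Naglu (chr11:101069985-101070061, plus strand): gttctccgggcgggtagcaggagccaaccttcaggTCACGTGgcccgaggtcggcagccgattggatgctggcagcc
Atp6v0b (chr4:117887330-117887401, minus strand): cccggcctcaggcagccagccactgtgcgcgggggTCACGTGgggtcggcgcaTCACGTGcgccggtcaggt

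The first motif base lay 49 bases before the start in Glb1, 74 in Naglu and 149 in Cln3. Lamp1 held the core 4 times in its window and Atp6v0b held it 2 times. The 12 members with TCACGTG were Arsa, Atp6v0b, Atp6v0d1, Atp6v1a, Cln3, Gaa, Gla, Glb1, Lamp1, Mcoln1, Naglu and Sgsh. Of these 12, 5 were called higher, 2 lower and 5 not, with means from -0.27 to 0.71 and a median of 0.04. Of all genes tested on the oligonucleotide array, 22.0% were called higher and 21.4% lower. Calls among the other genes with TCACGTG were not counted. Of the 26 measured members whose windows lacked the motif, 14 were called higher, 4 lower and 8 not, with means from -0.33 to 1.22 and a median of 0.15. Genes with and without the letters therefore spanned both directions. Gpr137b and Atp6v0d2, which led their classes, are among the 9 members for which no window was given.

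Hydrolases were grouped by the material they break down. Of the 22 hydrolases, 9 were called higher and 4 lower (59.1% called, against 43.4% of all genes), and the class median was 0.06. The largest ratios were in enzymes that trim sugars from sphingolipids and glycosaminoglycans.

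Among 5 enzymes of glycosphingolipid breakdown, 3 were called higher and 1 lower (80% called, against 43.4% of all genes), with a median of 0.26. Hexa encodes the alpha chain of beta-hexosaminidase, which cuts N-acetylgalactosamine from the ganglioside GM2, and its ratios were 1.09, 1.05 and 0.83 in pools 1, 2 and 3. It was high in every pool, 1.98-fold on average (0.99 ± 0.14, SD, n = 3 pools, limma adjusted p = 4.31e-04). Glb1, the lysosomal beta-galactosidase, stood at 0.83, 0.69 and 0.60, or 1.63-fold (0.71 ± 0.12, adjusted p = 7.18e-04 with limma), although its cDNA ratios were negative (mean -0.36, not called). Arsa, the arylsulfatase that desulfates sulfatide, was called higher at 0.26 ± 0.05, while its cDNA ratios were negative in every pool (mean -0.85, not called). Galc, the galactosylceramidase that acts on the lipid left after that step, went the other way at -0.24, -0.37 and -0.20 (-0.27 ± 0.09, limma adjusted p = 0.00779). Its 3 pools were all below 0 and all below every pool of Arsa. Gla, the alpha-galactosidase A, was not called (0.04).

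Among 7 enzymes of glycosaminoglycan breakdown, 3 were called higher and 2 lower (71.4% called, against 43.4% of all genes), with a median of 0.13. Gusb, the beta-glucuronidase, had ratios of 0.73, 0.69 and 0.47, a 1.55-fold difference (0.63 ± 0.14, limma adjusted p = 0.00121). Ids, the sulfatase that opens dermatan and heparan sulfate chains, had -0.42, -0.22 and -0.34 (-0.33 ± 0.10, limma adjusted p = 0.00491). Naglu, the N-acetylglucosaminidase of heparan sulfate whose promoter stretch is among those printed, had -0.17, -0.28 and -0.37 (-0.27 ± 0.10, limma adjusted p = 0.00862). Every pool of Gusb thus lay above 0 and every pool of Ids and Naglu below it. All 3 enzymes take part in the breakdown of heparan sulfate. Arsb, the sulfatase of N-acetylgalactosamine 4-sulfate, and Idua, the alpha-iduronidase, were called higher at 0.17 ± 0.06 and 0.13 ± 0.01. The call of Idua was lost when any 1 pool was left out (adjusted p = 0.162, 0.107 and 0.1 without pools 1, 2 and 3), and that of Arsb without pool 1 (0.105) or pool 2 (0.111). Galns (0.16) and Sgsh (-0.06), sulfatases of keratan and heparan sulfate, were not called.

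Among 5 enzymes of glycoprotein sugar breakdown, 1 was called higher and 1 lower (40% called, against 43.4% of all genes), with a median of -0.07. Man2b1, the lysosomal alpha-mannosidase, was higher at 0.38 ± 0.06. Fuca1, the alpha-fucosidase, had -0.15, -0.13 and -0.19 (-0.15 ± 0.03, limma adjusted p = 0.0272). These were small and alike in the 3 pools, and the call was lost when any 1 pool was left out (adjusted p = 0.126, 0.0679 and 0.0838 without pools 1, 2 and 3). Manba (0.06), the beta-mannosidase, Aga (-0.07), which splits the sugar-asparagine bond, and Neu1 (-0.10), a sialidase, were not called.

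The remaining 5 hydrolases act on glycogen, proteins and phosphate esters. Tpp1, a peptidase that removes tripeptides from protein ends, was called higher at 0.54 ± 0.10. Acp5, the tartrate-resistant acid phosphatase of macrophages and osteoclasts, was called higher at 0.41 ± 0.10. Acp2, the housekeeping lysosomal acid phosphatase, was not called (-0.03), and Acp5 exceeded Acp2 by 0.46, 0.51 and 0.35 in pools 1, 2 and 3. Gaa, the acid alpha-glucosidase that degrades glycogen, was not called (-0.07).

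Ppt1, which removes palmitate from proteins, was not called as an average of 3 features (0.07), yet its features disagreed. The feature whose deposited annotation is a RefSeq transcript read 0.63, 0.53 and 0.42 and was called higher when fitted alone (limma adjusted p = 0.00139). Another read -0.35, -0.38 and -0.36 and was called lower (limma adjusted p = 0.00183), and the third, at 0.04, was not called. Ppt1 therefore has no settled direction here. For Arsb 1 feature was called higher (0.32, limma adjusted p = 0.00456) and the other not (0.02). For Mcoln1, the TRPML1 calcium channel, 1 feature was called lower (-0.29, limma adjusted p = 0.00562) and the other was not (0.11).

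**Figure D2:**
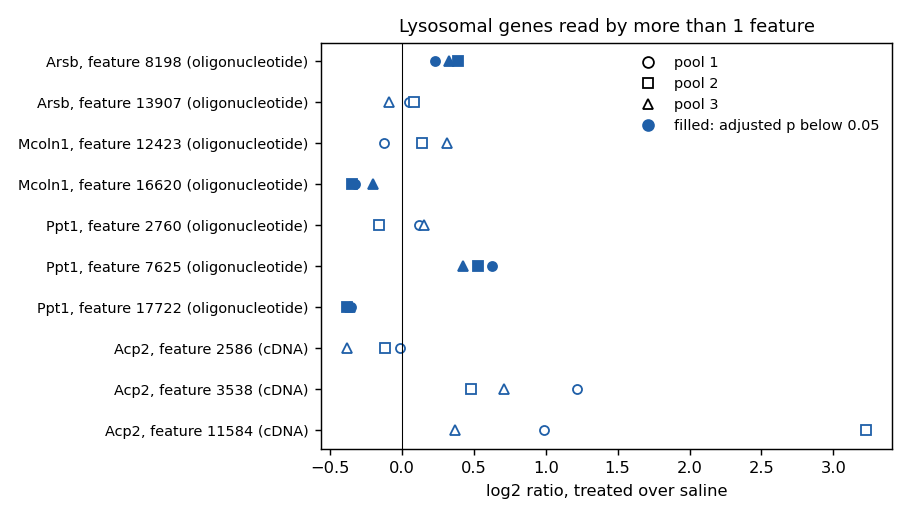
Log2 ratio of treated over saline (x axis, log2 units) for each feature of the 4 lysosomal genes read by several features of an array (y axis, feature and array type), with 1 marker per pool and filled markers for features with an adjusted p under 0.05. For Ppt1 a called feature lies at 0.42 or above in every pool and another at -0.35 or below.

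Activator proteins, here the products of Psap and Gm2a, help present lipid substrates to hydrolases. Of the 4 activator and lipid-binding proteins, 3 were called higher and 1 was not called (75% called, against 43.4% of all genes), and the median was 0.34. Psap, the precursor of the saposins that lift sphingolipids out of membranes, had 0.85, 0.69 and 0.67 in the 3 pools, or 1.66-fold (0.73 ± 0.10, limma adjusted p = 5.69e-04). Grn, the progranulin precursor, was higher at 0.38 ± 0.11. Npc2, which carries cholesterol out of the lysosomal lumen, was higher at 0.29 ± 0.13, with its call lost without pool 1 (adjusted p = 0.0537). Gm2a, the GM2 activator that works with the product of Hexa, was not called (-0.04).

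Membrane proteins held the largest member ratio. Of 10, 5 were called higher and 1 lower (60% called, against 43.4% of all genes), with a median of 0.16. Gpr137b, an integral membrane protein of lysosomes, had 2.47, 2.15 and 2.08, a 4.71-fold difference (2.24 ± 0.21, limma adjusted p = 1.45e-04). It has a pseudogene copy, Gpr137b-ps, that a cDNA feature names together with it, so that feature was left out, and whether the oligonucleotide feature also reads the copy was not tested. Laptm5, a transmembrane protein of lysosomes in blood-derived cells, had 1.41, 1.31 and 0.95, or 2.34-fold (1.22 ± 0.24, limma adjusted p = 6.07e-04). Every pool of both genes lay above every pool of the other 8 membrane proteins. Laptm4a, a related and widely expressed gene, was called higher at 0.30 ± 0.03, and Laptm5 exceeded it by 1.07, 1.03 and 0.67 in the 3 pools. Laptm4b, the closest relative of Laptm4a, was not called (0.05).

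The paired coat proteins of the lysosomal membrane moved in opposite directions on this array. Lamp1 was called higher with a mean of 0.28 ± 0.01, almost the same in every pool. Lamp2, which also serves chaperone-mediated autophagy, had -0.28, -0.38 and -0.18 (-0.28 ± 0.10, limma adjusted p = 0.00808). Lamp1 exceeded Lamp2 by 0.55, 0.66 and 0.46 here, while on the cDNA array Lamp2 was positive (mean 0.48, not called). Cln3, a membrane protein whose loss causes a form of neuronal ceroid lipofuscinosis, was higher at 0.30 ± 0.04. Npc1, the partner of Npc2 in cholesterol export, was not called (-0.12), nor were Mcoln1 (-0.09) and Scarb2 (-0.05), the receptor that delivers glucocerebrosidase.

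Among 10 measured V-ATPase genes, 4 were called higher and 1 lower (50% called, against 43.4% of all genes), with a median of 0.10. The largest ratio was that of 1 isoform of a V0 subunit. Atp6v0d2, the d2 isoform found in osteoclasts and macrophages, had 1.21, 0.87 and 1.002, or 2.04-fold (1.03 ± 0.17, limma adjusted p = 5.31e-04). Atp6v0d1, the ubiquitous d1 isoform of the same position, was not called (0.04), and d2 exceeded d1 by 1.13, 0.79 and 1.06. The means of the other 9 V-ATPase genes lay between -0.20 and 0.23. Atp6v0b, a proteolipid of the V0 ring whose promoter stretch is among those printed, had -0.17, -0.09 and -0.33 (-0.20 ± 0.12, limma adjusted p = 0.0327). It was low in every pool but most in pool 3, and its call was lost without pool 1 (adjusted p = 0.107) or pool 3 (0.0994).

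Another 3 subunits were called higher by small amounts: Atp6v0a1, the V0 a1 subunit (0.23 ± 0.08), Atp6v1a, the ATP-splitting A subunit (0.22 ± 0.05), and Atp6v1d, the central stalk subunit (0.18 ± 0.02). All of these calls were lost without pool 1 (adjusted p = 0.0594, 0.0808 and 0.0728), and those of Atp6v0a1 and Atp6v1d also without pool 2 (0.0554 and 0.0557). Atp6v1b2, Atp6v1c1 and Atp6v1h, which are parts of V1, had means of 0.10, 0.09 and 0.09, and the accessory protein gene Atp6ap1 had -0.01. None of these was called with all 3 pools, and Atp6v1c1 was called without pool 3 (0.18, limma adjusted p = 0.0433). Tfeb itself was not called (0.08).

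The 3 large classes were set side by side through the median of their members in each pool. Hydrolases had 0.09, 0.05 and 0.07, membrane proteins 0.18, 0.14 and 0.17, and V-ATPase genes 0.16, 0.15 and 0.15. Membrane proteins exceeded hydrolases by 0.09, 0.09 and 0.10, and V-ATPase genes exceeded hydrolases by 0.08, 0.10 and 0.08. Membrane proteins and V-ATPase genes differed by 0.02, -0.01 and 0.02, with no constant sign. These differences were no larger than 0.10, while members within a class ranged from -0.33 to 0.99 among hydrolases and from -0.28 to 2.24 among membrane proteins. The median of the gene means was 0.06 for hydrolases, 0.10 for V-ATPase genes and 0.16 for membrane proteins. By that measure V-ATPase genes lay between the other classes rather than level with membrane proteins. Leaving out pool 1 lowered that hydrolase median to 0.04 and leaving out pool 2 raised it to 0.09.

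**Figure D3:**
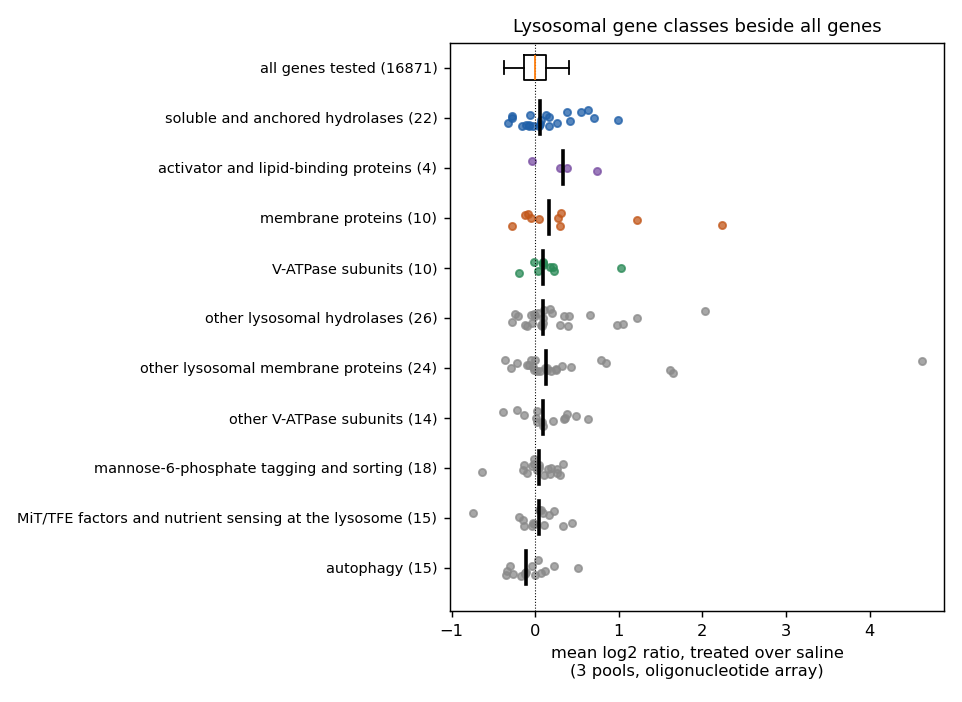
Mean log2 ratio of treated over saline on the oligonucleotide array (x axis, log2 units) for every gene (points) of each lysosomal class and of further lists of lysosomal genes (y axis, genes tested in parentheses), with bars at class medians. The box of all 16871 genes spans the middle 50% with whiskers from 5% to 95%, and most class members lie within those whiskers while Gpr137b, Laptm5 and Atp6v0d2 lie far to the right.

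Other genes of the pathway were counted in the same way, beside 22.0% of all genes called higher, 21.4% lower and 43.4% in either direction. Of 26 other lysosomal hydrolases, 11 were called higher and 3 lower (53.8% called), with a median of 0.10. Their largest called means were Ctss at 2.03, Ctsb at 1.22, Lgmn at 1.05 and Ctsd at 0.98, all cathepsins or related proteases. Of 24 other lysosomal membrane proteins, 12 were called higher and 3 lower (62.5% called), with a median of 0.13. They were led by Gpnmb (4.63), Cd63 (1.65), Cd68 (1.61) and Mcoln2 (0.85). Gpnmb and Cd68 are also on the macrophage list.

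Of 14 other V-ATPase subunits, 5 were called higher and 2 lower (50% called, against 43.4% of all genes), with a median of 0.09. Tcirg1, the V0 a3 subunit of osteoclasts and immune cells, had a mean of 0.63 and exceeded its a1 counterpart Atp6v0a1 by 0.46, 0.36 and 0.40 in the pools. Atp6v1g1 (0.49) and Atp6ap2 (0.38) were higher and Atp6v1g3 (-0.39) lower. Taking all 24 measured V-ATPase genes by sector, V1 had 4 of 13 called higher and 1 lower (median 0.09). V0 had 4 of 9 called higher and 2 lower (median 0.10). Of the 24 genes, 12 were not called.

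Genes that deliver enzymes to lysosomes or sense nutrients there had medians nearer 0. Of 18 genes of mannose-6-phosphate tagging and sorting, 7 were called higher and 2 lower (50% called, against 43.4% of all genes, median 0.04). Among them were Ap3m1 at -0.64, Gga3 at 0.34 and the receptors M6pr at 0.29 and Igf2r at 0.27. Of 15 genes of the Tfeb family and of nutrient sensing, 4 were called higher and 1 lower (33.3% called, median 0.05). These included Fnip2 at -0.75, Lamtor3 at 0.44, Rragd at 0.34 and Mitf at 0.22. Of 15 autophagy genes, 2 were called higher and 5 lower (46.7% called, median -0.11). The cargo receptor Sqstm1 was at 0.52 and Wipi2, Gabarap and Becn1 were at -0.35, -0.33 and -0.30.

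Markers of liver cell types were counted in the same pools on the oligonucleotide array. Of all genes there, 22.0% were called higher and 21.4% lower. Of 20 measured macrophage and Kupffer cell markers, 15 were called higher and 4 lower, and their mean was 1.05, 0.83 and 0.90 in pools 1, 2 and 3. Gpnmb (4.63), Trem2 (4.31) and Lyz2 (1.84) rose and Cd163 (-1.77) fell. Of 8 neutrophil markers 7 were called higher, with means of 0.94, 0.70 and 0.59. Of 12 hepatocyte markers 7 were called lower and 5 were not called, with means of -0.44, -0.45 and -0.38. Of 10 osteoclast markers, counted because Atp6v0d2 and Acp5 are also known from that cell, 3 were called higher and 1 lower, with means near 0 (0.08, 0.07 and 0.08). The values are ratios, so they do not show which defining markers lack RNA. Of 9 lymphocyte, 8 stellate cell and 5 biliary markers 6, 7 and 2 were called higher. Of 8 endothelial markers 2 were called lower and 6 were not called. In either direction, 40% of osteoclast, 40% of biliary and 25% of endothelial markers were called, below the 43.4% of all genes. That share was 58.3% for hepatocyte, 66.7% for lymphocyte, 87.5% for neutrophil, 87.5% for stellate cell and 95% for macrophage markers. On the cDNA array 0 markers were called, as were 0 of all genes. Among the markers measured there, the median was 1.27 for macrophage, 0.07 for neutrophil, 0.27 for stellate cell and -0.355 for hepatocyte markers. On the oligonucleotide array these medians were 0.96, 0.53, 0.53 and -0.28, over more markers. The cDNA means over the pools were 0.80 for macrophage, 0.78 for neutrophil, 0.31 for stellate cell and -0.35 for hepatocyte markers. For 6 lymphocyte markers the cDNA median was -0.53, against 0.25 for 9 on the oligonucleotide array. For 3 biliary markers it was -0.16, against 0.10 for 5, and for 3 endothelial markers 0.08, against -0.02 for 8. For 2 osteoclast markers it was 0.45, against 0.02 for 10. These medians therefore do not cover the same markers on both array types. The part of these cells in the lysosomal ratios was not tested. The 7 leading members were all highest in pool 1, and 6 of them were lowest in pool 3, the exception being Atp6v0d2 with its lowest value in pool 2. Of all 358 genes higher at 1.5-fold or more, 257 (71.8%) were also highest in pool 1.

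On the cDNA array, limma called 0 of 26 members and 0% of all 5011 genes. At an unadjusted p under 0.05 there were 14 members (53.8%), 11 positive and 3 negative, against 1518 genes (30.3%), and a test of each gene by itself, without limma's shared variance, called 1 gene of the whole array. The smallest adjusted p of a member was 0.0984, for Laptm5. Positive in all 3 pools were 15 members (57.7%, against 31.1% of all genes), and negative in all 3 were 6 (23.1%, against 26.3%). The median SD over the pools was 0.15 among members and 0.32 among all genes there, beside 0.09 and 0.08 on the oligonucleotide array.

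Several leading members had positive cDNA ratios in every pool. Laptm5 read 1.16, 0.90 and 0.87, and Gusb 0.81, 0.89 and 0.63. Psap read 0.61, 0.68 and 0.54, and Hexa 0.50, 0.61 and 0.55. The 3 pools of each gene lay above 0 with little spread. Man2b1 read 0.92, 0.60 and 0.73, above its oligonucleotide ratios in every pool, on arrays that were each centred on their own median. Neu1 read -0.55, -0.34 and -0.43 and Atp6v0b -0.39, -0.72 and -0.33, both below 0 in every pool.

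Some cDNA values varied widely. Arsb had 2.69, 4.78 and 0.86 (2.78 ± 1.96), Tpp1 had 1.16, 1.28 and 0.24, and Arsa had -1.57, -0.62 and -0.35. Galns was positive in pool 1 (1.05) and negative in pools 2 and 3 (-0.64 and -0.77). Acp2 was the average of 3 cDNA features with means of -0.17, 0.80 and 1.53, none called. A further 5 members had a value on fewer than 3 cDNA arrays and were not tested there: Atp6v1a, Atp6v1c1 and Scarb2 on 1 array each, Ids and Manba on 2. Ids read -2.75 in pool 1 and 0.36 in pool 3, and Manba 2.99 and 0.11.

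For the 26 members with all 6 values, both arrays of a pool were averaged and the 3 pool means tested. This called 5 of 26 higher (19.2%, against 2.47% of all 4702 genes) and 0 lower (against 2.64%), beside 5.10% of all genes in either direction. They were Laptm5 at 1.10 ± 0.19 (limma adjusted p = 0.0394), Hexa at 0.77 ± 0.07 (0.0394), Gusb at 0.70 ± 0.13 (0.0432), Psap at 0.67 ± 0.06 (0.0394) and Man2b1 at 0.56 ± 0.10 (0.0483). At an unadjusted p under 0.05, 12 members had positive means (46.2%, against 19% of all genes) and 2 had negative means (7.69%, against 17.2%), Neu1 and Atp6v0b. These calls were few. Without pool 1 or without pool 2, 0 members and 0 of all 4702 genes were called. Without pool 3, 5 members were called, beside 11.3% of all genes, and Tpp1 took the place of Man2b1.

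For 2 members the array types differed in ratio, by a limma fit with an array type term (cDNA minus oligonucleotide, called for 11.4% of 4702 genes, 5.17% higher and 6.25% lower on cDNA). Glb1 was positive on the oligonucleotide array in all pools and read -0.26, -0.35 and -0.48 on the cDNA array, a difference of -1.07 ± 0.12 (SE, limma adjusted p = 0.0176). Lamp2 was negative on the oligonucleotide array and read 0.55, 0.60 and 0.29 on the cDNA array, a difference of 0.76 ± 0.13 (SE, limma adjusted p = 0.0298). With the pool as a block both calls were lost, at adjusted p = 0.128 and 0.138, as were all 537 calls of that fit. Without pool 1 or pool 2 they were also lost (Glb1 0.248 and 0.194, Lamp2 0.262 and 0.231), and 0 of all 4702 genes were called. Without pool 3 they were kept, and Tpp1 and Acp2 were also called higher and Gla and Atp6ap1 lower on cDNA. That made 3 of 26 members in each direction, in a setting that called 22.6% of all 4702 genes. In all, 10 of the 26 members had means of opposite sign on the 2 array types. In 5 of these the sign was opposite in every pool: Glb1, Lamp2, Arsa (means 0.26 and -0.85), Tfeb (0.08 and -0.09) and Gla (0.04 and -0.30). For Arsa, called higher on the oligonucleotide array, the difference of -1.11 ± 0.32 (SE) was not called (limma adjusted p = 0.0798). For Tfeb and Gla it was not called either (limma adjusted p = 0.28 and 0.431). The other 5 were Acp2, Galns, Gaa, Atp6v0d1 and Laptm4b. Opposite signs were not counted over all 4702 genes, so these counts cannot be set against a background share. Lamp1 minus Lamp2 was -0.37, -0.24 and -0.03 on the cDNA array, a difference that was not tested.

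**Figure D4:**
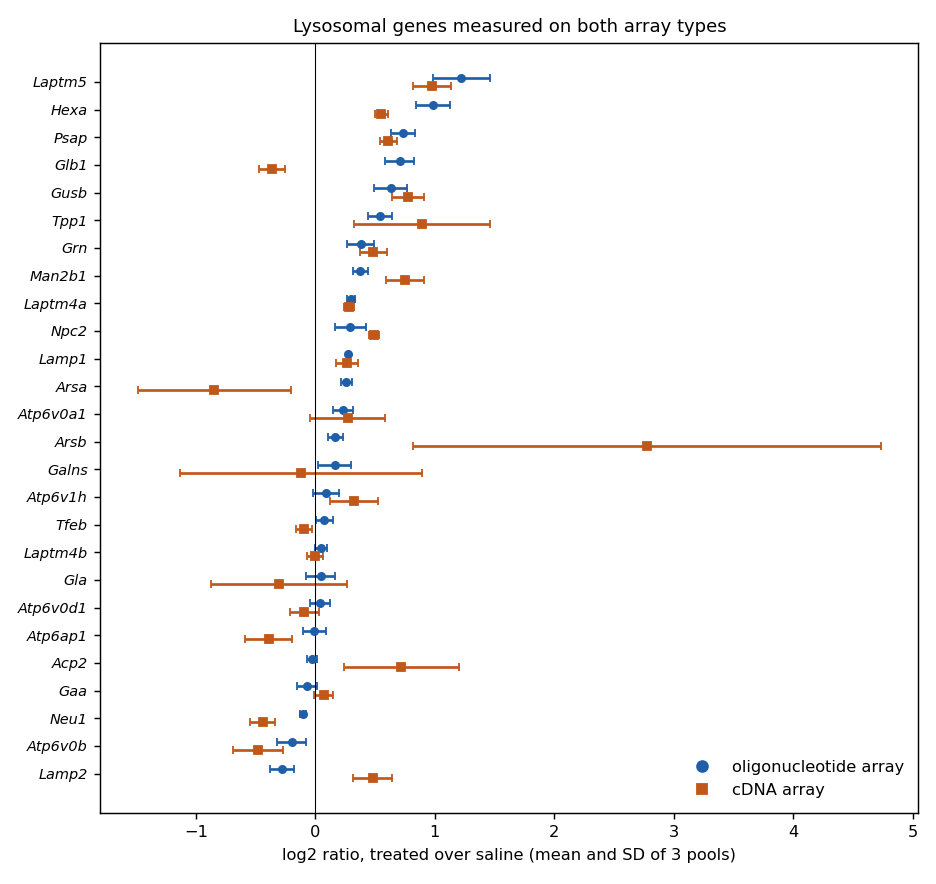
Log2 ratio of treated over saline (x axis, log2 units) of each of the 26 lysosomal genes with values on all 6 arrays (y axis), as the mean (marker) and SD (bar) of 3 pools, with oligonucleotide arrays as circles and cDNA arrays as squares. Laptm5, Gusb, Psap and Hexa are positive on both types, while 10 genes, among them Glb1, Lamp2 and Arsa, have means of opposite sign. Opposite signs were not counted over all genes.

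The class medians depended on which genes an array measured. Over the genes measured on both types, the median mean of 12 hydrolases was 0.21 on the oligonucleotide and 0.31 on the cDNA array. That of 5 membrane proteins was 0.28 on both, and that of 5 V-ATPase genes was 0.04 and -0.09. Over all genes tested the median was 0.00 on the oligonucleotide and 0.06 on the cDNA array. In these smaller sets V-ATPase genes lay below hydrolases on either array, whereas over all measured genes of the oligonucleotide array they lay above. On the cDNA array the pool medians of V-ATPase genes minus hydrolases were -0.84, -0.36 and -0.32, and those of membrane proteins minus hydrolases were -0.29, -0.02 and 0.02, the latter with no constant sign.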

How the data were processed

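Liver RNA was measured on 6 two-colour Agilent arrays, with the treated pool in Cy5 and the common control pool in Cy3, per the labels. The deposited table of each array type holds the authors' log ratio of every feature on every array, deposited without a stated base and read here as log2. The largest absolute value was 6.34, beyond what a 16-bit scanner allows in log10 units (4.82), while a natural log was not excluded. The sources used here do not give the authors' background correction, normalization or filters.

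Features were named from the platform annotation: 18658 of 22575 oligonucleotide and 7410 of 13482 cDNA features named 1 gene and were used. Features naming several genes (30 and 438) or none (3887 and 5634) were left out. The gene ID of 18445 and 7332 of them was found in the RefSeq table of GRCm38.p6, and no symbol changed. Values of exactly 0 were treated as missing (1257, 1277 and 1258 features of the oligonucleotide arrays and 5082, 5332 and 3421 of the cDNA arrays), arrays were centred on the median of the other features, and features of a gene were averaged.

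limma 3.58.1 in R 4.3.3 (lmFit and eBayes) tested the mean of 3 pools against 0 over all genes of each array type, over pool means of both types, and for the difference between types, with Benjamini-Hochberg adjustment. The script was tested on simulated data. Per the labels, both arrays of a pool read the same RNA, so pool numbers pair the arrays. The correlation across genes of their deviations from the group mean was 0.06, 0.07 and 0.07 in pools 1, 2 and 3. Python 3.11.15, pandas 2.3.3 and matplotlib 3.10.9 were used for tables and plots.

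The members and lists were chosen with earlier results of these data known. Pool values are given for members called with at least 1.5-fold, called lower, or discussed on the cDNA array. Genes outside the members come from the lists of lysosomal genes and macrophage markers, at most 4 per list, by largest absolute mean among those called. Of the listed genes, Limp2 and Tmem55b are older names of Scarb2 and Pip4p1 and matched nothing under those names. Alternatives covered centring, zeros, scaling, the choice of feature, the filter on missing values, the test and each pool in turn. Fitting each feature by itself was added after the values were seen. Nothing says how single mice were assigned to pools, so p-values measure the spread between these pools.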

Additional observations from a re-analysis of the deposited data

Results flagged for a closer look

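In the limma fit without a block, 11.4% of 4702 genes were called between array types. Glb1 and Lamp2 were the 2 of 26 members called there (limma adjusted p = 0.0176 and 0.0298). Both arrays of a pool read the same RNA, and with the pool as a block neither was called (0.128 and 0.138), and 0 of 4702 genes were. Both calls were also lost without pool 1 or pool 2, where 0 of all genes were called. Glb1, the beta-galactosidase, had a cDNA ratio lower than its oligonucleotide ratio by a difference of -1.07 (log2). Lamp2 had a cDNA ratio higher by 0.76. In each case the sign was the same in all 3 pools on an array type and opposite between types.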

How the results depend on the processing

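On the oligonucleotide array all 21 higher and 6 lower members were called again without centring, with zeros kept, with scaled arrays, with the feature of lowest ID, with values on at least 2 arrays and with robust eBayes. In these settings 43.2% to 43.8% of all genes were called. Against a 1.2-fold change (limma treat) 8 and 0 members were called, beside 5.17% of all genes. A one-sample test per gene without the shared prior called 0 and 0 of the members, beside 0.237% of all genes. Leaving out 1 pool gave 15 to 21 higher and 4 to 5 lower. Of all genes, 23.9%, 29.2% and 37% were called without pools 1, 2 and 3. Class medians moved between 0.038 and 0.095 for hydrolases and between 0.11 and 0.13 for V-ATPase genes when 1 pool was left out, and between 0.16 and 0.18 for membrane proteins. Over both array types, the 5 calls fell to 0 with zeros kept, with values on at least 2 pools, against a 1.2-fold change and in the one-sample test. They ranged from 0 to 5 with 1 pool left out. In every setting with 0 members called, 0 of all genes were called. Between array types, the 1 member higher and 1 lower on cDNA became 0 and 0 with the pool number as a replicate block. These counts ranged from 0 to 3 in each direction with 1 pool left out, and the lower count was 2 without centring. Of all genes, 0 were called with the block and without pool 1 or pool 2. The share of all genes was 22.6% without pool 3 and 11.9% without centring. On the cDNA array 0 members were called under every alternative run, beside at most 0.02% of all genes. Ppt1 turned to -0.36 in 1 of its 3 features fitted alone. The cause of these changes was not tested. The 3 pools share 1 control pool, and the ratios do not show which features were near background.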
